A study of Drosophila melanogaster with 4 samples.

Results

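Broad Hairy peaks on the autosomes, outside the densest clusters of peaks, numbered 467 among the 10565 autosomal peaks and the 13577 peaks of the whole list. They were chosen by their called width and their neighbourhood: peaks of 2000 bp or more on arms 2L, 2R, 3L and 3R, leaving out those in dense clusters. A dense cluster is a joined region of 10 or more peaks, with neighbours joined across gaps of at most 1000 bp. The rule kept 467 of 609 autosomal peaks of that width, and the other 142 lay in dense clusters. The 467 peaks made up 4.42% of autosomal peaks and 16.9% of the autosomal sequence inside peaks (1308060 of 7718267 bp).

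Hairy is a repressor of the basic helix-loop-helix-Orange family, known as a pair-rule protein of the segmenting embryo and as a regulator of sensory bristle patterning. It binds E-box-like DNA sites and recruits the corepressor Groucho through a short motif at its C-terminal end. In Drosophila embryos, Hairy with Groucho is classed as a long-range repressor, one whose effect on chromatin can extend well beyond its binding site. How wide Hairy signal is called around single sites, and what lies beside the widest peaks, is therefore of interest.

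The libraries were 3 chromatin immunoprecipitations with the rabbit polyclonal serum KW3-h-D1, raised against a Hairy peptide, and 1 input of unenriched chromatin. All came from Kc167 cells, a female line of late embryonic origin with the genotype se/e, grown as a culture and fixed with formaldehyde. The submitters deposited a single peak list for the series, so there is no value per library, no error between replicates and no test between groups, and the depth of the libraries is unknown. The labels do not say if the ChIP replicates were grown as separate cultures.

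Each peak carries a start, an end and a score, which by its values is −log10 of a p-value. Most scores sit on a ladder in which each step is 1 more fragment over a constant background of 157.836 fragments, so a count of fragments and a fold over that background can be read back from a score. Peaks within 0.01 of a step are called on the constant background. The rest are called off it. MACS can score a peak against a raised background around it, and on that basis their fold is at least the one given when set against the constant background, and at most the one given against their own. Each fold has an exact 95% Poisson interval, and each share an exact binomial one. Both cover counting error only, and peaks that lie side by side are not independent.

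Among the broad peaks, numbers fell steeply with width. Their median width was 2551 bp (quartiles 2217 and 3070 bp), with a maximum of 7888 bp. Of the 467, 222 were below 2500 bp wide, 120 were from 2500 to below 3000 bp, 82 from 3000 to below 4000 bp, 27 from 4000 to below 5000 bp, and 16 were 5000 bp or wider. Near the limit there was no step in score: the median score was 34.4 among the 61 members of at most 2099 bp, against 33.9 among the 50 peaks of 1902 to 1998 bp outside dense clusters. The narrowest members, both 2000 bp wide, lay on 3R from 228639 to 230638 (score 53.5) and from 277833 to 279832 (score 107.5). Just outside, the 1998 bp peak on 2L from 20060269 to 20062266 scored 20.5 and the 1997 bp peak on 2R from 7170486 to 7172482 scored 27.9. At the cluster limit, the median score was 51.2 for the 29 members in joined regions of 9 peaks, against 46.3 for the 19 broad peaks in regions of 10. The widest of these were 5279 bp on 2L from 18143962 to 18149240, just inside, and 6424 bp on 2R from 18819735 to 18826158, just outside.

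**Figure D1:**
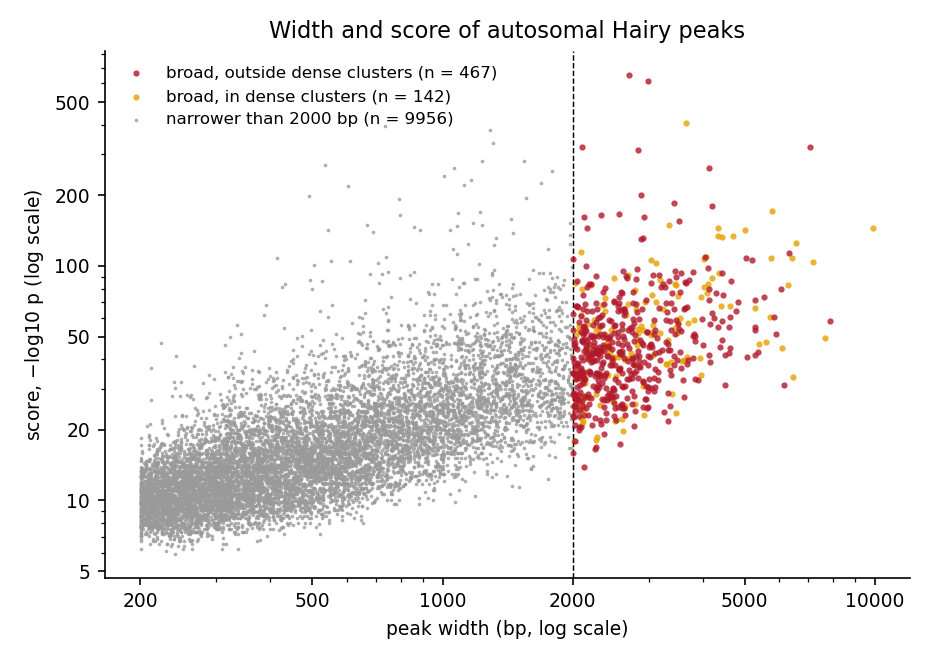
Score (−log10 p, log scale) against called width (bp, log scale) for the 10565 autosomal peaks, with the 467 broad peaks outside dense clusters in red, the 142 broad peaks in dense clusters in orange and narrower peaks in grey. The dashed line is the limit of 2000 bp. Broad peaks begin at a score of 13.9, while narrower peaks reach down to 5.92 and also include some of the highest scores.

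Broad peaks scored higher than the autosomal list as a whole. Width and score come from the same called signal, so this is a description of the selection and was not tested. The median score was 43.2 (quartiles 33.0 and 58.8), against 15.0 (quartiles 11.1 and 22.4) for the other 10098 autosomal peaks. In fragments, the 326 members on the constant background had a median of 358, or 2.27-fold over background (quartiles 2.09 and 2.52-fold). The 7192 other autosomal peaks on it had a median of 266 fragments, or 1.69-fold. A fold of 2 or more was reached by 395 of 467 members (84.6%, interval 81.0 to 87.7%), where 18.4% of all autosomal peaks reached it. A fold of 3 or more was reached by 32 members (6.85%), where 1.05% of all autosomal peaks did. Most members still did not stand far above background: 130 (27.8%) reached 2.5-fold and 9 (1.93%) reached 4-fold. Of all autosomal peaks, 3.81% and 0.246% did. Only 1 member scored at or below the autosomal median of 15.5.

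The highest scores of all autosomal peaks belonged to broad ones, but narrower peaks shared the top of the list. Among the 20 highest autosomal scores, 6 were members, 1 was a broad peak in a dense cluster and 13 were narrower than 2000 bp. Among the highest 100 there were 29 members, 18 broad peaks in clusters and 53 narrower ones, and among the highest 500 there were 156, 68 and 276. A large called width was thus common, and not the rule, among the strongest Hairy sites.

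A pair of members stood apart from the rest. The strongest lay on 2R from 17589851 to 17592556, a 2706 bp peak with a score of 654 and 7.93-fold (interval 7.50 to 8.38). It sat inside a joined region of 6 peaks and 10400 bp, and its stronger adjacent peak scored 152, itself higher than all but 14 members. The second lay on 3R from 25541453 to 25544436, with 2984 bp, a score of 614 and 7.65-fold (interval 7.22 to 8.09). It had a single partner in its region, scoring 31.4, so the surroundings of the 2 strongest members were unlike. After them, 3 members on 3R had close scores and intervals that overlapped: 7079 bp from 21829700 to 21836778 (score 322, 5.37-fold), 2103 bp from 6240391 to 6242493 (score 321, 5.37-fold) and 2827 bp from 21845298 to 21848124 (score 312, 5.28-fold, off the constant background). Widths thus differed more than 3-fold among members of nearly equal score. The sixth, on 2R from 4813193 to 4817333, was alone in its region, with 4141 bp and a score of 260.4 (4.82-fold, interval 4.48 to 5.18). The remaining 14 of the 20 highest-scoring members scored between 108 and 200.3.

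Arm 2L supplied more of these 20 than any other arm. It held 9 of them, while 2R and 3R had 5 each and 3L had 1. Of all members, 21% were on 2L. The highest on 2L, from 16742395 to 16745277, scored 200.3 with 2883 bp. Next on that arm came the peaks from 19423419 to 19426847 (score 186) and from 14021580 to 14025771 (score 180.2), followed by those from 16349908 to 16352467 (score 166) and from 20414524 to 20416849 (score 165). Of the 9 peaks, 8 lay off the constant background and were read at 3.24 to 4.24-fold. If they were scored against a raised background around them, these folds are lower limits over the constant background. Over the raised background they are then upper limits. No raised background is given in the list. Only the peak from 14021580 lay on the constant background, at 4.04-fold (interval 3.73 to 4.36). On 3L the highest member ran from 18987749 to 18990679, with 2931 bp, a score of 161 and 3.83-fold (interval 3.53 to 4.15).

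Wider members tended to score higher, with a wide scatter. Median scores were 39.3, 42.2, 49.8, 60.7 and 59.3 in the 5 width classes above, from the narrowest to the widest. A fold of 2 was reached by 78.4% of members below 2500 bp, by 83.3% and 95.1% of the next 2 classes, and by all 43 members of 4000 bp or more. Across the 467 members the rank correlation of width and score was 0.32 (Pearson r = 0.32 on log2 values), and it was 0.39 among the 326 on the constant background. Across all 10565 autosomal peaks it was 0.75. Peaks share libraries and neighbours, and both measures come from 1 called signal, so no p is given.

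The widest members showed this scatter. The widest of all, 7888 bp on 3R from 15729348 to 15737235, scored 58.3 (2.53-fold, interval 2.29 to 2.80) and ranked 120th among members by score. The 6152 bp peak on 3L from 1794304 to 1800455 scored 31.1, lower than most members. It lay off the constant background, so the 2.06-fold read from its score is a lower limit over that background. By contrast, the 6335 bp peak on 2L from 19157924 to 19164258 scored 114, and the 7079 bp peak on 3R already described scored 322. Of the 10 widest members, these 2 alone were also among the 20 highest scores. The other 6 of the 10 widest, from 5284 to 6060 bp, scored between 43.0 and 79.9.

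**Figure D2:**
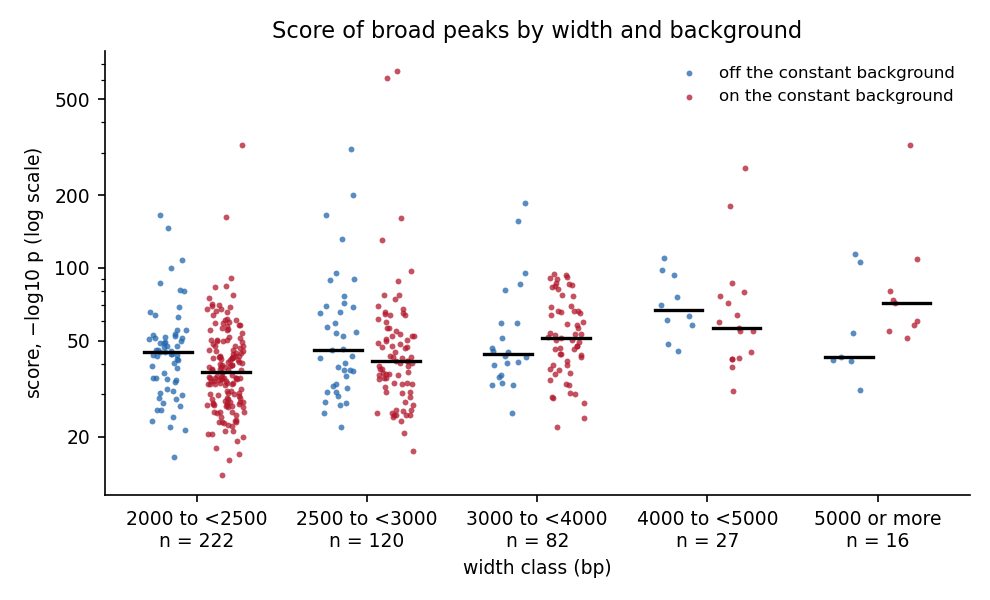
Score (−log10 p, log scale) of each of the 467 broad peaks by width class in bp, with peaks off the constant background in blue on the left and peaks on it in red on the right. Black bars are medians. Those on the constant background rise from 37.0 in the narrowest class to 71.4 in the widest, and those off it show no such order (44.9, 45.9, 44.1, 66.8 and 43.0).

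At the low end, 8 members scored below 20. The lowest, 2125 bp on 2R from 9835704 to 9837828, scored 13.9 with 262 fragments (1.66-fold, interval 1.47 to 1.87). Next came a 3R peak from 5598157 to 5600164, scoring 16.0, and a 2R peak from 14735034 to 14737288, scoring 16.5. They were followed by 2 more 3R peaks, from 24863534 to 24865797 with 16.9 and from 7570880 to 7573452 with 17.4. All 5 were narrower than 2600 bp, and their intervals on the fold overlapped. The fold read from the score was below 2 in each.

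Most broad peaks had other Hairy peaks close by. The distance to the nearest other peak was 207 bp at the median (quartiles 102 and 500 bp), against 335 bp (quartiles 132 and 900 bp) for the 8884 narrower autosomal peaks outside dense clusters. Less than 100 bp from 114 members (24.4%) there was another peak, against 18.9% of those narrower peaks. No distance was below 50 bp in either set. Where a broad region was called as separate peaks with short gaps between them, a called width understates the width of the whole. Joining all peaks with gaps of at most 100 bp before applying the rule gave 641 broad peaks in place of 467. Merging also lowers the number of peaks per region, and 43 of the 641 lay in dense clusters of the unmerged list. The other 598 did not, a split chosen after seeing the data.

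When peaks were joined across gaps of at most 1000 bp, the members fell into 404 regions. A member was alone in its region in 55 cases (11.8%, interval 9.0 to 15.1%), against 2065 of the 8884 narrower peaks (23.2%). Regions of 3 peaks were the most frequent among members, with 90 (19.3%), against 14.7% of the narrower peaks. The rule caps a region at 9 peaks, so these shares describe peaks outside clusters only. The median region with a member was 5560 bp long and was 85.1% covered by peaks. The longest was on 2R from 9213776 to 9232975, 19200 bp with 8 peaks, of which 3 were members. The next was on 2L from 16519852 to 16537117, 17266 bp with 9 peaks, of which 5 were members, the highest number in any region.

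**Figure D3:**
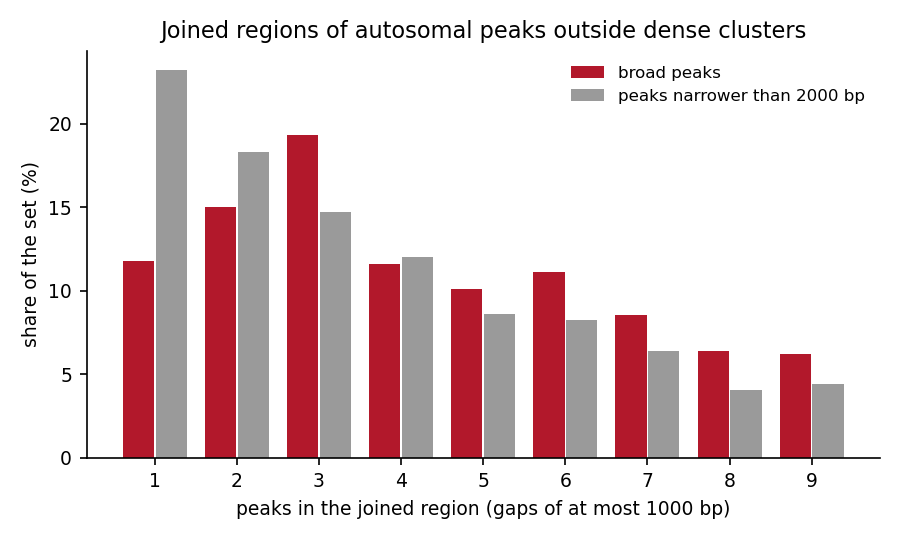
Share (%) of the 467 broad peaks (red) and of the 8884 autosomal peaks narrower than 2000 bp outside dense clusters (grey) by the number of peaks in their joined region. Single-peak regions hold 11.8% of the broad peaks and 23.2% of the narrower ones, and regions of 5 to 9 peaks each hold a larger share of the broad peaks.

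Within their regions, broad peaks were usually the highest point but not always. Of the 412 members that shared a region, 295 (71.6%) had its highest score and 349 (84.7%) its greatest width. The remaining 117 had a stronger peak in the same region, and for 59 of the 467 members (12.6%) the nearest peak scored higher than the member itself. Only another member can be wider than a member in these regions, so the 84.7% follows from the rule. Score went with width across all autosomal peaks (rank correlation 0.75), so the 71.6% also describes the selection. In regions of 3 or more peaks, 216 members lay in the interior and 126 at an edge. Median scores were 43.8 for interior members, 42.9 for all members at an edge (n = 196) and 40.5 for members that were alone. Their quartiles overlapped widely, from 33.9 to 58.7 for interior members and from 33.0 to 52.9 for those that were alone. Score had almost no relation to the number of other peaks within 10 kb (rank correlation −0.03 across 467 members), and neither had width (0.03). The rule limits both width and close neighbours, so these values hold for members only. The 142 broad peaks in dense clusters had a median of 12 other peaks within 10 kb, against 8 for members. Their median width (2811 against 2551 bp) and score (50.8 against 43.2) were also larger.

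Around the centres of broad peaks, called signal fell off over several kb and stayed above the level around narrower peaks. The shares count the member itself, and 245 members were 2500 bp or wider. They therefore do not show how frequent other signal was right beside a member. At 2.5 kb to the left and to the right of the centre, 47.3% and 42.6% of positions lay inside a peak, where the member itself covered them in some cases. For narrower peaks outside dense clusters these shares were 27.9% and 27.6%. At 5 kb they were 34.9% and 31.0% for members, against 23.5% and 23.7%, and at 10 kb they were 25.7% and 25.5%, against 19.6% and 19.8%. Beyond that the difference did not close: at 20 kb the shares were 20.6% and 19.1% for members, against 16.0% and 16.8%. Over a wider window the counts were close: within 50 kb, a member had a median of 25 other peaks (quartiles 18 and 34), and a narrower peak 22 (quartiles 12 and 31).

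**Figure D4:**
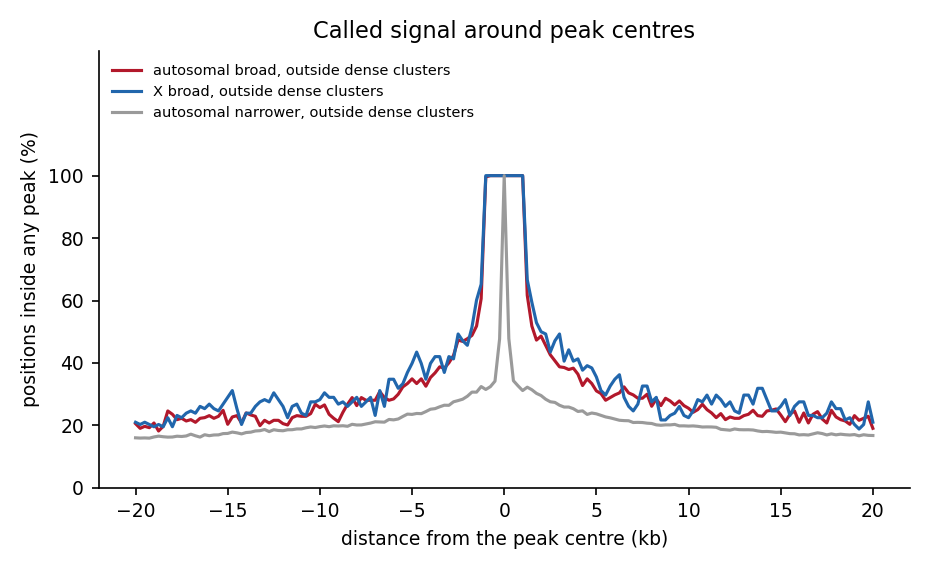
Share (%) of positions inside any called peak, by distance (kb) from the centre of autosomal broad peaks outside dense clusters (red, n = 467), X broad peaks outside dense clusters (blue, n = 138) and narrower autosomal peaks outside dense clusters (grey, n = 8884). At 5 kb on the left, the shares are 34.9% around the autosomal broad peaks, 39.9% around those on X and 23.5% around narrower ones. Beyond about 10 kb the lines decline slowly, and the grey line is the lowest on both sides of the centre.

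A few broad peaks were isolated. For 6 members the nearest peak was more than 10 kb away, which was 1.28% of members, against 4.83% of the narrower peaks. The most isolated was also among the strongest: 2128 bp on 3R from 12420023 to 12422150, with 28859 bp to the nearest peak, a score of 162 and 3.84-fold (interval 3.54 to 4.16). Only 5 other peaks lay within 50 kb of it. Nearly as isolated was a weak member on 3L from 4039505 to 4042476, with 28857 bp to the nearest peak and a score of 24.7. Then came the 2L peak from 17409947 to 17412239, scoring 34.6 with 15335 bp to the nearest peak. The 3R peak from 24669640 to 24671684 scored 25.3 at 11532 bp, and the 3L peak from 22733169 to 22735731 scored 36.3 at 11190 bp. All 6 lay on the constant background. Among the 55 members that were alone in their region, 4 scored above 100, out of 23 such members in all. Isolation and a weak score thus did not go together throughout.

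Many broad peaks had another within 10 kb. This held for 195 members (41.8%), while 29.2% of the 8884 narrower peaks outside dense clusters had a member that close. The median distance between a member and the nearest other was 13.99 kb. Linked over gaps of at most 10 kb, the members formed 353 runs, of which 81 held 2 or more and the longest held 6. Within 10 kb of 1 of the 90 autosomal dense clusters lay 31 members (6.64%), against 5.02% of the narrower peaks. Within 100 kb lay 159 members (34.0%), against 26.6%. These differences were not tested. Bins of 1 Mb with more members also held more other peaks, as given below, and whether the differences go with that was not tested either.

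Both runs of 6 members were on 2L. The run from 16509701 to 16537117 was 27417 bp long, of which the members covered 13809 bp. Their scores, in order along the arm, were 46.8, 132, 146, 44.9, 100.3 and 42.0. High and low scores therefore stood side by side, and all 6 members lay off the constant background. The run from 1147810 to 1186977 was 39168 bp long, with 18526 bp in members. Its scores in order were 39.7, 43.5, 64.1, 35.4, 25.2 and 110, where the last peak, 4052 bp wide, lay only 116 bp from its weak neighbour. Off the constant background were 5 of these 6 members.

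Other runs were more even or more compact. A run of 5 members on 2L, from 104317 to 133877, scored between 34.9 and 81.7, and none lay off the constant background. Another 5 members, on 3L from 3371769 to 3401285, covered 18951 of 29517 bp, the largest sum of member widths in any run, with scores from 30.7 to 95.3. On 2R from 9218652 to 9232975, 3 members of 3362, 5033 and 4129 bp covered 12524 of 14324 bp and scored 58.3, 108 and 79.4. On 3R from 21829700 to 21848124, a run of 3 held the third and the fifth strongest members, beside a member that scored 42.2.

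The broad peaks were shared among the arms almost as all autosomal peaks were. Arm 3R held 159 (34.0%, interval 29.8 to 38.5%), 2R 127 (27.2%), 2L 98 (21.0%) and 3L 83 (17.8%), where these arms held 33.0%, 27.4%, 20.3% and 19.3% of all autosomal peaks. Members per Mb of the span that peaks cover numbered 6.09 for 2R, 5.70 for 3R, 4.26 for 2L and 3.38 for 3L. Between 4.07% (3L) and 4.57% (3R) of the peaks on an arm were members. Median widths were close, from 2460 bp on 3R to 2611 bp on 2R. Median scores were 48.1 on 2L, 42.9 on 2R, 42.7 on 3L and 42.2 on 3R, with quartiles that overlapped (35.5 and 68.3 on 2L, 28.9 and 54.2 on 3R). A fold of 3 or more was read for 15 of 98 members on 2L (15.3%), 8 of 159 on 3R (5.03%), 6 of 127 on 2R (4.72%) and 3 of 83 on 3L (3.61%). Over the 4 arms, 1.05% of all autosomal peaks reached it. That share is not given by arm, so the higher share on 2L was not shown to be particular to members. Of the 15 on 2L, 12 lay off the constant background. Among members on it, 3 of 36 on 2L (8.33%), 6 of 136 on 3R (4.41%), 5 of 107 on 2R (4.67%) and 1 of 47 on 3L (2.13%) were read at 3-fold or more.

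Within arms the broad peaks were unevenly spread. Among 98 bins of 1 Mb the median was 3.5 members, 20 bins held none and the fullest held 22. Bins with more members also held more other peaks (rank correlation 0.79 across 98 bins, and from 0.61 on 3R to 0.78 on 3L within arms). Neighbouring bins are not independent, so no p is given. The fullest bin was 3L from 1 to 2 Mb, with 22 members of 242 peaks (9.09%). The bins on 2L from 0 to 1 Mb and from 16 to 17 Mb followed with 17 each, 8.25% and 10.2% of their peaks. On 2R the fullest bin, from 3 to 4 Mb, held 15, and on 3R that from 19 to 20 Mb held 14.

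In the long sparse parts of 2L and 3L, broad peaks were scarcer than the other peaks were. These segments, 2L from 2 to 10 Mb and 3L from 6 to 18 Mb, were already known from this list as poor in peaks, and they were not chosen independently of it. They held 10 members among 860 peaks (1.16%), against 457 among 9705 peaks (4.71%) in all other autosomal bins. Of their 20 bins, 13 held no member, and of the other 78 bins, 7 held none. The longest stretch between consecutive members ran on 2L from 6481533 to 11104887, 4623 kb with 311 other peaks in it. On 3L, the longest ran from 11289352 to 14748172, 3459 kb with 79 other peaks.

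The 10 members in these segments were not all weak. Their scores ran from 19.98 to 106, with a median of 38.2, and 7 of 10 reached 2-fold. The strongest was 5191 bp wide, on 2L from 2195903 to 2201093, and lay off the constant background, as 3 of the 10 did. On 3L the strongest was the peak from 15097295 to 15099353, 2059 bp wide with a score of 66.6 (2.66-fold). Wide and well above background, such peaks occurred in the sparse segments too, at a low number.

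Whether a broad peak lay off the constant background varied among and within arms. Over the 4 arms, 141 of 467 members lay off it (30.2%, interval 26.1 to 34.6%), close to the 28.8% of all autosomal peaks. By arm, the share was 63.3% on 2L (62 of 98, interval 52.9 to 72.8%), 43.4% on 3L (36 of 83, interval 32.5 to 54.7%), 15.7% on 2R (20 of 127, interval 9.89 to 23.3%) and 14.5% on 3R (23 of 159, interval 9.40 to 20.9%). For the other peaks of the same arms it was 48% on 2L, 31.5% on 3L, 24% on 2R and 19.3% on 3R. The order of the arms was thus the same in both sets, and members spanned a wider range. Within 2L the members' share was 62.5% from 0 to 2 Mb (15 of 24), 40% from 2 to 10 Mb (2 of 5) and 65.2% from 10 Mb to the end (45 of 69). Among all peaks of these segments the share was 59.2%, 5.41% and 57.3%. Within 3L the members' share was 55.4% from 0 to 6 Mb (31 of 56), 20% from 6 to 18 Mb (1 of 5) and 18.2% from 18 Mb to the end (4 of 22). Among all peaks of these segments the share was 50.9%, 10.6% and 21.8%. A single bin on 3R, from 0 to 1 Mb, held 7 of the 23 members of that arm that were off the constant background. On 2R the bin from 9 to 10 Mb held 6 of 20. Of all peaks in these bins, 120 of 142 and 136 of 243 were off it. The bins are named because they held the most such members on their arms, so they do not stand for other bins. The members' pooled share rests on the mix of arms: without 2L it was 21.4%, and without 3R it was 38.3%. A score that fell evenly between the steps would be read as on the constant background in 5.55% of cases at the members' scores.

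**Figure D5:**
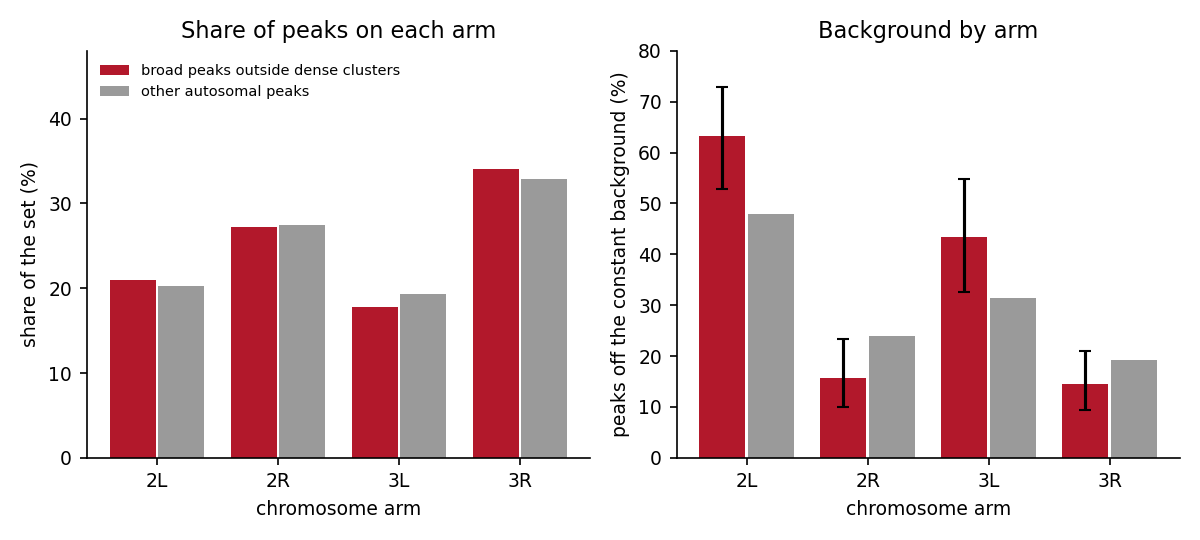
Left, share (%) of the 467 broad peaks (red) and of the 10098 other autosomal peaks (grey) on each arm. Right, percentage of each set off the constant background by arm, with exact 95% binomial intervals for the broad peaks. The shares per arm are nearly equal in both sets, while the percentage off the constant background runs from 14.5% on 3R to 63.3% on 2L among broad peaks.

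Members off the constant background had neighbours that were off it too. The nearest other peak was off it for 109 of 141 such members (77.3%), against 49 of 326 members on it (15.0%). The same direction held on each arm, with 85.5% against 27.8% on 2L, 70.0% against 14% on 2R, 72.2% against 25.5% on 3L and 69.6% against 8.82% on 3R. Such shares are not given for narrower peaks, so this was not shown to be particular to members. Among all peaks the share off the constant background also differed by place, from 5.41% to 59.2% between segments of 2L. The members' share off it also went up with the size of the joined region, from 21.8% of members alone in a region to 25% in regions of 2 or 3 peaks, 31.4% in regions of 4 to 6 and 41.4% in regions of 7 to 9. Within arms this did not hold throughout. Between regions of 1 to 3 peaks and regions of 4 to 9 it was 6.78% and 23.5% on 2R, 34.8% and 54.1% on 3L, 61.3% and 64.2% on 2L, and 16.5% and 12.5% on 3R. Narrower autosomal peaks too were off it more often inside dense clusters (51.1%) than outside them (25.7%). At the cluster limit the order was the other way. Off it were 55.2% of the 29 members in regions of 9 peaks (interval 35.7 to 73.6%). In regions of 10 peaks, 31.6% of the 19 broad peaks were (interval 12.6 to 56.6%). In width and score the members off and on the constant background differed little, with median widths of 2600 and 2526 bp and median scores of 45.4 and 42.2. On 2L the order of the scores was the other way, at 46.3 off it and 51.8 on it.

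Broad peaks inside dense clusters were the nearest counterpart on the same arms. The 467 members had a median width of 2551 bp and a median score of 43.2, against 2811 bp and 50.8 for the 142 broad peaks in clusters. A fold of 2 was reached by 84.6% of members and 82.4% of broad peaks in clusters, and a fold of 3 by 6.85% and 14.1%. Peaks on the constant background alone were closer. Median folds were 2.27 for 326 members and 2.33 for 63 broad peaks in clusters, with median scores of 42.2 and 45.5. The share off the constant background was 30.2% among members and 55.6% in clusters (interval 47.1 to 64.0%), close to the 51.1% of the narrower peaks in the same clusters. A fold of 4 was reached by 9 members (1.93%) and 1 broad peak in a cluster (0.704%), where 0.246% of all autosomal peaks reached it. With 1 peak on the cluster side, no order is read from this. These differences were not tested, since the clusters were left out by the rule and all peaks come from 1 list.

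On the X chromosome the same width and cluster limits left 138 of 2617 peaks. Autosomal members and these X peaks had similar median widths (2551 and 2646 bp) and median scores (43.2 and 43.9). A fold of 2 was reached by 84.6% of the autosomal members and 79.7% of the X peaks, and a fold of 3 by 6.85% and 7.25%. The nearest other peak lay at a median of 207 bp from autosomal members and 205 bp from the X peaks. Off the constant background were 30.2% of the autosomal members and 17.4% of the X peaks (interval 11.5 to 24.8%), a share near those of 2R and 3R and below those of 2L and 3L. Each was near the share of all peaks beside it, 28.8% on the autosomes and 19.9% on X (521 of 2617).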

How the data were processed

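The data were 1 list of Hairy peaks for 4 libraries, 3 ChIP and 1 input. Per the file headers, the authors called peaks with MACS on FlyBase release 5. The submitters' processing notes also name MACS2, BWA, the build BDGP5 and CASAVA (1.7.0.2, 1.7.0.3), without roles. How wide a peak is called depends on the threshold, the use of the input and any pooling, which no source used here gives. Scores in the deposited list were taken as the −log10 p-value of each peak, because its common values follow Poisson tail probabilities over 1 constant background, fitted in steps of 0.001 as the value that placed most scores up to 60 within 0.006 of a whole fragment. The code for this reading and for the rule was run on simulated data, whose scores were made with the same Poisson steps. It returned the planted background and members. This checks the code and cannot show that the deposited scores are such p-values. Python 3.11.15, numpy 2.4.6, pandas 2.3.3, scipy 1.17.1 and matplotlib 3.10.9 were used.

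The members, settings and segments were chosen with earlier results of these data known. Peaks named are the 20 highest-scoring, 10 widest, 5 most isolated and 5 lowest-scoring members, the highest of each arm and those at the limits; peaks in runs and segments were named after their values were seen. Alternatives changed the width and cluster limits, arms, tolerance and merging. Sequences, genes and the antigen's place in the protein were not analysed here: the only gene table used names release 6 positions, and builds were not mixed.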

Additional observations from a re-analysis of the deposited data

How the results depend on the processing

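No paired analysis was possible because peaks carry 1 score for the series, and for the same reason each replicate stayed in. Of 105 values recomputed, 73 stayed within their interval or, for counts, within 1.5 times, and 32 moved. Only the 13 rank correlations could change sign, and none did. Each setting changes which peaks or scores count, for values that stayed as for those that moved. Why some moved was not tested. At a minimum width of 1500 bp there were 883 broad peaks, with a median score of 38.3 and 73.3% at 2-fold or more. At 2500 bp there were 245 (47.7, 90.2%), with a median distance to the nearest peak of 173 bp. At 3000 bp there were 125 (53.5, 96.8%, 169 bp), with 27.2% on 3R. A joining gap of 500 bp put 35.0% off the constant background and left 21.0% alone in their region, and one of 2000 bp 25.1% and 7.43%. With clusters from 5 peaks there were 269 broad peaks, 25.7% off the constant background and 20.4% alone, with a distance of 298 bp. The share on 3R was 41.7% on the constant background alone, and 43.1%, 46.8% and 41.4% without 2L, 2R and 3L. Without 3R there were 308 broad peaks, 88.0% at 2-fold. The share off the constant background was 21.4%, 35.6% and 38.3% without 2L, 2R and 3R, and 35.8% at a tolerance of 0.006. Merging peaks within 100 bp gave 79.3% at 2-fold and a distance of 295 bp. The rank correlation of width and score ran from 0.25 to 0.39 over all 13 settings. Depth is unknown, so its limit on weak or wide peaks was not assessed.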
